A study of Homo sapiens with 5 samples.

Results

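The genes described here are 10 human transcription regulators of the B lineage: ETV6 and RUNX1, the pair joined in the ETV6-RUNX1 fusion, with PAX5, EBF1, TCF3, TCF4, IKZF1, FOXO1, BACH2 and ID3. They were chosen by name for their known roles, with earlier results of these data known. They were found by their Ensembl identifiers, 10 of the 65217 human gene identifiers measured. All 10 were among the 20419 genes with enough counts to be tested. Messenger RNA was measured in the human cell line REH, derived from a precursor B cell leukaemia and positive for the fusion, after growth in mice as xenotransplants. One group was REH cells taken from the leptomeninges of the brain (3 libraries), and the other was REH cells taken from the spleen (2 libraries). Both groups came from NSG mice, a strain that lacks mature T, B and NK cells, engrafted at 6 to 10 weeks of age, and the leukaemia cells were enriched on a Ficoll density gradient. Each library pooled RNA of 5 mice, the experiment was run on 3 occasions, and the submitters left out the spleen pool of the third occasion for quality. The results therefore describe 1 cell line, and p-values measure the spread between pools rather than between animals. By the labels the pools of a group come from separate occasions, but the occasion of each spleen pool is uncertain, since its column name carries another number.

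These factors act in a cascade. The E proteins TCF3 and TCF4 bind the E-box of B lineage genes as dimers, EBF1 and PAX5 then commit cells to the B lineage, and IKZF1, FOXO1 and BACH2 govern the precursor stage, in which cells rearrange their immunoglobulin genes. ID3 has no DNA-binding region of its own and holds E proteins away from DNA. The t(12;21) translocation joins the front of ETV6, a repressor of the ETS family, to nearly the whole of RUNX1, the DNA-binding partner of CBFB, and it is the most common fusion gene of childhood precursor B cell leukaemia. In REH cells the other ETV6 allele is known to be deleted.

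The deposited gene table held between 38387991 and 48764202 estimated counts a library. Mouse transcripts took 5.70, 2.58 and 2.64% of all estimates in the brain libraries, against 6.33 and 8.87% in the spleen libraries. The defining markers of precursor B cells were present in both groups, with a summed level of 5896 to 6070 CPM (counts scaled to a fixed library total) in brain and 6877 to 7011 CPM in spleen over 10 genes, of which VPREB1 alone was at 0 in all 5 libraries. Of the 9 tested, CD34 was higher, at 2.32 ± 0.54 CPM in brain (SD, n = 3) and 0.502 ± 0.064 CPM in spleen (SD, n = 2), CD79A was lower, and 7 did not pass. A list of 26 markers of other cell types summed to 146 to 167 CPM in brain and 128 to 139 CPM in spleen. Of this, AIF1 alone had a mean of 74.8 CPM in brain and 72.4 CPM in spleen. These are counts of human genes and the host cells are mouse, so the sum is not a share of host cells. SNAP25 and CD3D were at 0 throughout, and 9 of the 26 had under 10 counts in every library. SYT1, a neuron marker like SNAP25, had means of 6.09 CPM in brain and 6.14 CPM in spleen. CD247, a T cell marker like CD3D, had means of 13.4 CPM in brain and 14.5 CPM in spleen. The groups of GFAP and MBP did not overlap, with higher means in brain (0.636 and 15.6 CPM) than in spleen (0.260 and 11.1 CPM). KLRD1 was lower in brain without overlap. Of the 16 tested, 1 passed, PECAM1 at 13.4 ± 3.66 CPM in brain (SD, n = 3) and 1.43 ± 0.49 CPM in spleen (SD, n = 2). Of the other endothelial markers, CDH5 had at most 6 counts in a library and was not tested. CLDN5 had a mean of 1.52 CPM in brain and 1.35 CPM in spleen and did not pass. The part of mouse RNA and of other cells in the results was not tested.

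Of the 10 factors, 3 rose in brain, TCF4, FOXO1 and ETV6, and none fell. Calls rest on the quasi-likelihood test of edgeR, adjusted by Benjamini-Hochberg over all genes tested, at a threshold of 0.05. By that rule 9.51% of all genes changed, 6.01% higher and 3.5% lower in brain. At an unadjusted p under 0.05 there were 5 factors, the other 2 being PAX5 and BACH2, both lower in brain, where 25.5% of all genes were under that value. The Wald test of DESeq2 called 4, with BACH2 lower. The median log2 fold change of brain over spleen was 0.18 over the 10 factors and 0.0066 over all genes. The brain and spleen libraries did not overlap for 9 factors, as for 42.8% of all genes. Brain was the higher group for 6 of them (23.3% of all genes) and the lower group for 3 (19.5%). In bulk RNA such as this, fewer cells of a kind and less RNA per cell cannot be told apart.

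**Figure D1:**
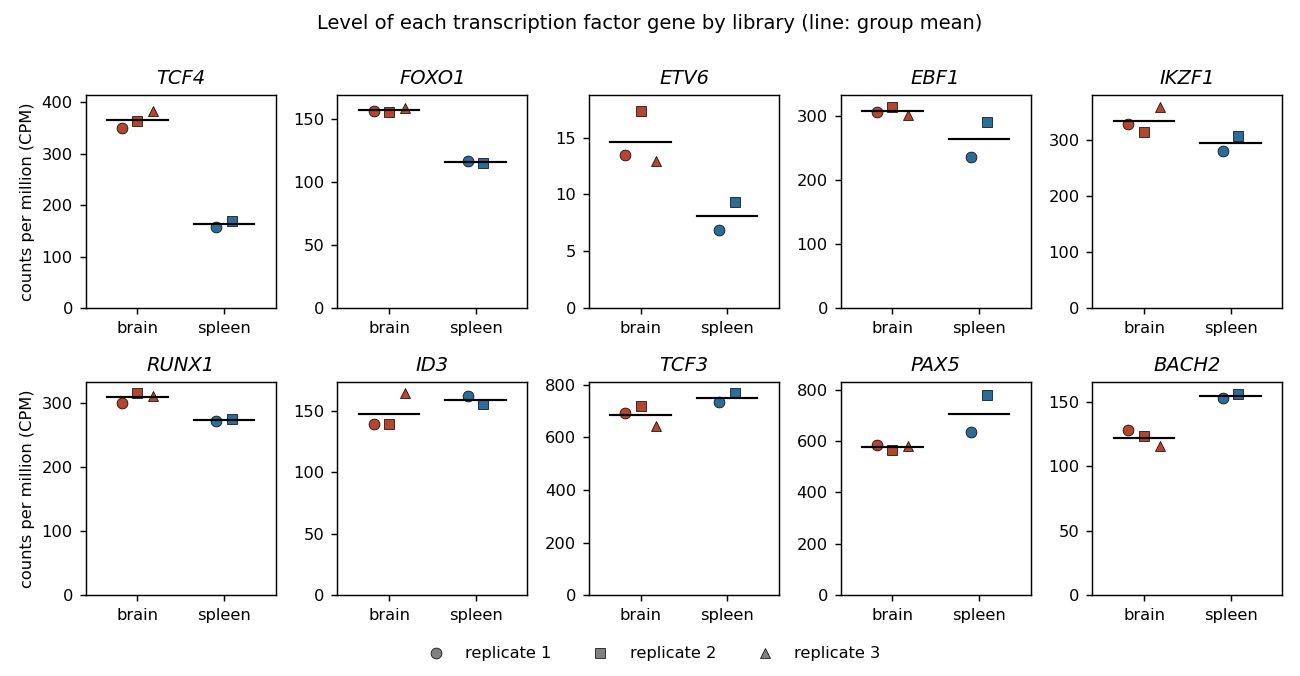
Level of each of the 10 factors in each library in CPM (linear axes from 0), brain left of spleen, with a line at each group mean and a marker shape for each replicate. The TCF4 points lie at 351 to 384 CPM in brain and at 157 and 170.3 CPM in spleen, while the ID3 points of brain and spleen overlap.

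Read per length of transcript, the factors spanned a wide range, with TCF3 highest at a mean of 442 TPM (transcripts scaled to a fixed total and to their length) over the 5 libraries (range 379 to 528) and ETV6 lowest at 6.01 TPM (3.79 to 9.75). ID3 came after TCF3 at 213 TPM (188 to 243), and the ranges of these neighbours did not overlap. PAX5 at 97.3 TPM, EBF1 at 83.7, RUNX1 at 74.5, IKZF1 at 65.7 and TCF4 at 61.4 formed a middle group in which each neighbour's range overlapped the next, and the range of TCF4 also overlapped that of FOXO1 at 32.4 TPM. BACH2 followed at 11.7 TPM, and its range overlapped that of ETV6. These levels count transcripts that are still in the current annotation, so those of BACH2, IKZF1, EBF1 and TCF3 are lower limits: such transcripts held 40.5 to 57.6% of the counts of BACH2, 63.4 to 77.7% of IKZF1, 65.4 to 87.5% of EBF1 and 67.5 to 89.1% of TCF3. For the same reason, the shares of single transcripts given for these 4 genes are shares of the matched TPM, and upper limits for the gene. The fixed total of TPM covers human and mouse transcripts together. Human transcripts summed to 896017, 956406 and 968995 TPM in brain and 920227 and 895387 TPM in spleen, and TPM comparisons between libraries carry this difference.

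**Figure D2:**
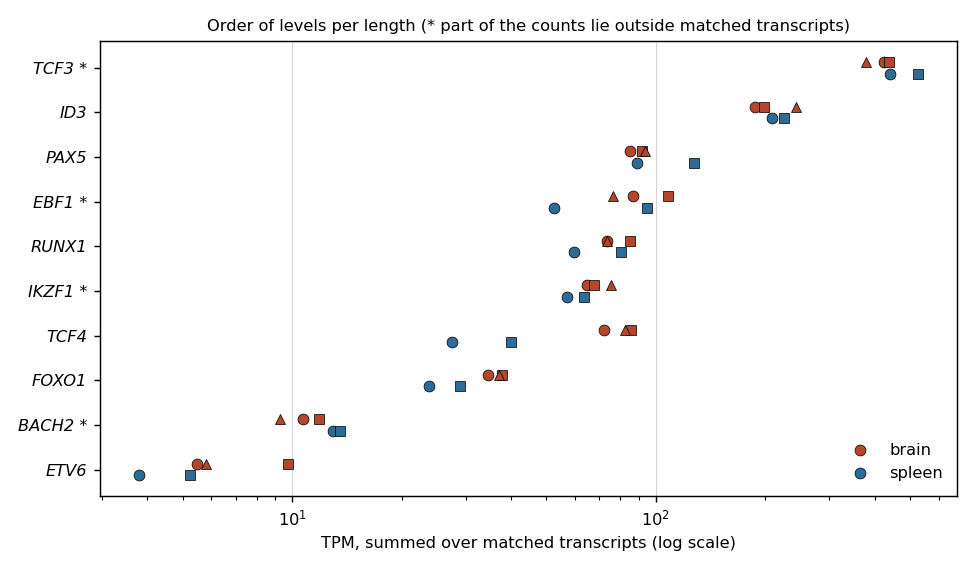
Level per length of each factor in TPM (log axis), ordered by the mean over the 5 libraries, 1 point a library, brain above spleen for each gene, with an asterisk on the 4 genes whose levels are lower limits. TCF3 stands at 442 TPM and ETV6 at 6.01 TPM.

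The fusion joins the end of the fifth ETV6 exon to exon 3, a short exon, of the RUNX1 transcript that begins at the distal start. Both reference exons are shown because sequencing reads across the fusion are made of them. In GENCODE 44 (build GRCh38) the last 30 bases of ETV6 exon 5 lie at chr12:11869940-11869969 on the plus strand, and RUNX1 exon 3 lies at chr21:34892925-34892963 on the minus strand. Capitals mark the 8 bases on each side that meet in the fused messenger RNA.
ETV6 exon 5 end: agcacgccatgcccattgggagAATAGCAG
RUNX1 exon 3: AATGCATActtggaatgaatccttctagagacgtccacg
The ETV6 intron that follows, in which the translocation is known to break, spans chr12:11869970-11884444 and is 14475 bases long. The RUNX1 intron before exon 3 spans chr21:34892964-35048841 and is 155878 bases long. The transcript names in the deposited tables hold no fused transcript, so a read of the fusion could be assigned to ETV6 or RUNX1 transcripts or to none, and fused and unfused messages of either gene cannot be told apart here.

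ETV6 (chr12:11649674-11895377, GRCh38) had 13.5, 17.4 and 12.98 CPM in the brain libraries, from 525, 860 and 584 counts, against 6.88 and 9.36 CPM in the spleen libraries, from 302 and 472 counts. All 3 brain libraries lay above both spleen libraries, with a mean of 14.6 ± 2.42 CPM in brain (SD, n = 3) and 8.12 ± 1.76 CPM in spleen (SD, n = 2). The log2 fold change was 0.85 with a standard error (SE) of 0.19, past the threshold by edgeR's quasi-likelihood test (adjusted p = 0.0274). Leaving out 1 library ended that call for brain replicate 1 (adjusted p = 0.0731), brain replicate 2 (0.0861) and spleen replicate 1 (0.12), at log2 fold changes of 0.90, 0.70 and 0.63. It held without brain replicate 3 (0.0422) or spleen replicate 2 (0.0194).

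Most ETV6 counts fell on ETV6-202, the transcript with exons on both sides of the fifth intron, with 481, 755 and 533 estimated counts in brain and 258 and 414 in spleen. It made up 38.4% of ETV6 TPM on average, because the short transcripts ETV6-203 (44.4%) and ETV6-205 (16.5%) weigh more per length. The 3 transcripts that end before the fifth intron summed to 43.1, 105 and 51.0 estimated counts in brain and 43.7 and 58.0 in spleen, so these groups overlapped. The transcript that lies wholly after that intron was listed at 0 in every library. It is 160 bases long, and ETV6-202 also covers that part of the gene. The 0 therefore does not show that part to be silent. Reads of the ETV6 exons in the fusion could be assigned to ETV6-202, so its counts do not show an unfused ETV6 message.

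RUNX1 (chr21:34787801-36004667) had 299, 315 and 311 CPM in brain and 271 and 275 CPM in spleen. The groups did not overlap, but the log2 fold change of 0.18 (SE 0.09) did not pass the test (adjusted p = 0.282, edgeR's quasi-likelihood test). The ratio of RUNX1 to ETV6 in TPM was 13.4, 8.73 and 12.7 in brain and 15.7 and 15.3 in spleen, lower in every brain library than in either spleen library. RUNX1 is read from a distal and a proximal start. Transcripts of the distal start summed to 32.2, 32.5 and 32.6 TPM in brain and 29.5 and 33.6 TPM in spleen, and those of the proximal start to 38.3, 50.5 and 37.99 TPM in brain and 27.7 and 42.6 TPM in spleen. Both pairs of groups overlapped. The leading transcript of each start, RUNX1-202 (proximal, 43.0% of RUNX1 TPM) and RUNX1-207 (distal, 25.3%), had log2 fold changes of 0.22 (SE 0.11) and 0.05 (SE 0.29), neither past the threshold.

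Among the E proteins, TCF4 had the largest fold change of the 10 factors. TCF4, also known as E2-2, lies at chr18:55222185-55664787 on the minus strand. Its level was 351, 363 and 384 CPM in brain and 157 and 170.3 CPM in spleen, so that the lowest brain library lay far above the higher spleen library. The log2 fold change was 1.16 (SE 0.10, adjusted p = 0.00051, edgeR's quasi-likelihood test), and the call held with any 1 library left out (log2 fold change 1.10 to 1.22, adjusted p up to 0.00433).

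TCF3, whose products are E12 and E47, had 691, 720.1 and 643 CPM in brain and 734 and 767 CPM in spleen. The brain libraries lay below the spleen libraries, but the log2 fold change of -0.13 (SE 0.10) did not pass the test (adjusted p = 0.461, edgeR's quasi-likelihood test). The ratio of TCF4 to TCF3 in CPM was therefore 0.508, 0.504 and 0.597 in brain and 0.214 and 0.222 in spleen. The genes differ in length, so the ratio compares libraries and not amounts of the 2 proteins.

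E12 and E47 differ by which of a pair of mutually exclusive exons codes the DNA-binding helix-loop-helix. Transcripts with the E47 exon alone summed to 214, 242 and 222 TPM in brain and 252 and 268 TPM in spleen. Those with the E12 exon alone summed to 84.0, 83.2 and 60.02 TPM in brain and 99.9 and 92.8 TPM in spleen. These sums leave out unmatched transcripts, and the matched ones held 83.7, 77.5 and 67.5% of TCF3 counts in brain and 89.1 and 76.4% in spleen, so no order of the groups is read from them. The ratio of E47 to E12 among matched transcripts was 2.55, 2.91 and 3.70 in brain and 2.52 and 2.88 in spleen, with overlap. The 4 leading TCF3 transcripts among those matched, TCF3-214 (27.0% of the matched TPM), the retained intron transcript TCF3-213 (15.7%), TCF3-211 (11.8%) and TCF3-204 (10.4%), had log2 fold changes of -0.10, -0.24, -0.39 and -0.55, none past the threshold.

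TCF4 transcripts begin at many starts along the gene, and the longer forms carry an additional activation domain at the front of the protein. Grouped by the position of their first base, the 40 long transcripts summed to 54.6, 58.8 and 60.5 TPM in brain and 22.7 and 30.5 TPM in spleen. The 24 transcripts of middle starts summed to 5.89, 7.87 and 5.40 TPM in brain and 1.73 and 3.35 TPM in spleen, and the 10 short transcripts to 11.4, 18.95 and 16.2 TPM in brain and 3.10 and 6.07 TPM in spleen. All 3 classes were higher in every brain library than in either spleen library, by 2.18-fold, 2.51-fold and 3.39-fold in the means. The ratio of long to short was 4.78, 3.10 and 3.73 in brain and 7.33 and 5.03 in spleen. The short class also holds TCF4-244, TCF4-252, TCF4-255 and TCF4-262, which begin further along the gene than its other transcripts. TCF4-262, a retained intron transcript, stood at 1.17, 1.45 and 2.43 TPM in brain and at 0 TPM in spleen. Without these transcripts the ratio was not computed, so no shift between starts is read from it or from the 3.39-fold difference. A single transcript, TCF4-202, held 57.6% of TCF4 TPM, at 35.7, 44.8 and 52.8 TPM in brain and 19.2 and 20.8 TPM in spleen (log2 fold change 1.10, SE 0.18, adjusted p = 0.277 by edgeR's quasi-likelihood test over all transcripts).

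**Figure D3:**
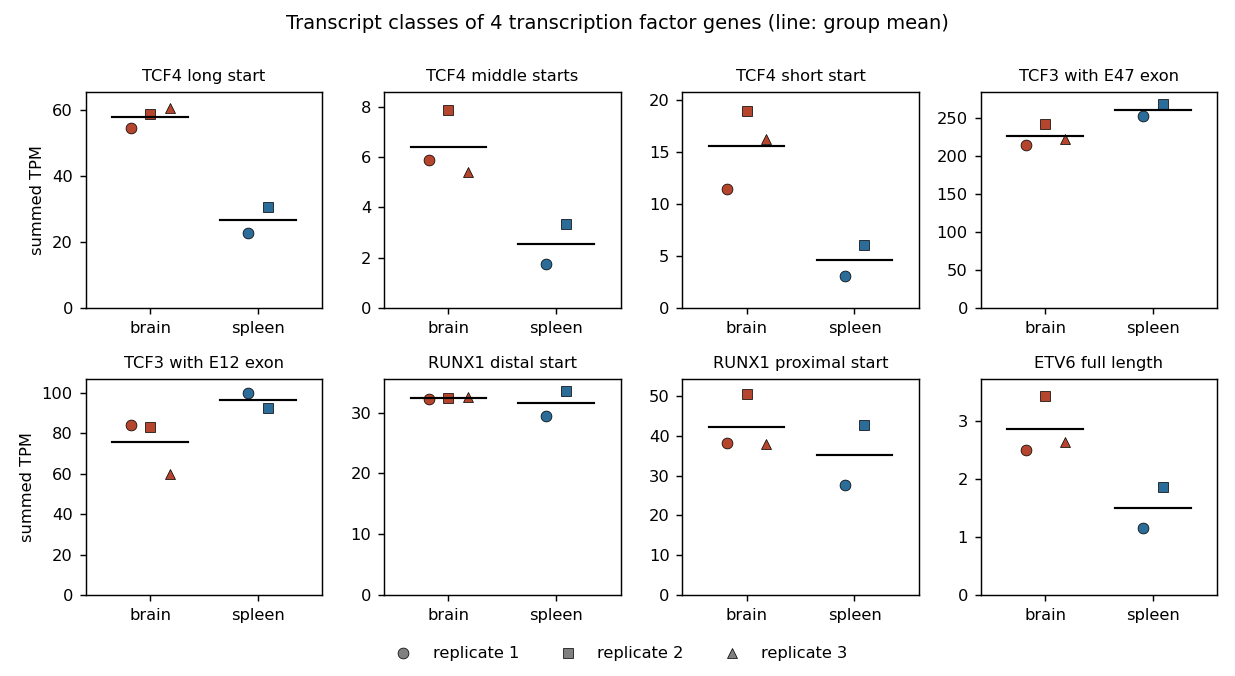
Summed TPM (linear axes from 0) of transcript classes of TCF4, TCF3, RUNX1 and ETV6 in each library, brain left of spleen, with a line at each group mean. All 3 classes of TCF4 lie higher in brain, at 54.6 to 60.5 TPM for the long forms against 22.7 and 30.5 TPM in spleen, and both RUNX1 classes overlap.

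The 250 bases before the start nearest to TCF4-202 are shown because most TCF4 messages in these cells were assigned to it. The window is chr18:55588618-55588867 on the minus strand, from RefSeq's promoter table (GRCh38.p14), and its end lies 12 bases from the annotated start of the transcript. Capitals mark matches on either strand to CANNTG (the E-box), TGTGGT (RUNX) or TGTTTAC (FOXO).
TCF4 promoter: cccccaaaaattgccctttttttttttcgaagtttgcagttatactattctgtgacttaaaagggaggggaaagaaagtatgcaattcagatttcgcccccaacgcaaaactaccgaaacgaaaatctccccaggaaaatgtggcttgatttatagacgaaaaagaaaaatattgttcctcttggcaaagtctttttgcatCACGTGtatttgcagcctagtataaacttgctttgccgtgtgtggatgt
It held 1 match, CACGTG, which is a form of the E-box, and which factors bind it was not tested. The motif CANNTG occurred in 61.8% of the 35116 windows of this length in the table, CACGTG in 6.34%, TGTGGT in 11% and TGTTTAC in 2.98%. The matching windows of FOXO1 and ETV6 held no match to these motifs, nor to the ETS motif CGGAAG, which 16.5% of windows held. The hypoxia motifs ACGTG and GCGTG, found in 18.5% and 32.2% of windows, were also searched. ACGTG matched 2 times at the CACGTG site of TCF4, and GCGTG 2 times in the ETV6 window. Neither matched in the FOXO1 window.

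ID3, the inhibitor of E proteins, had 139, 139 and 165 CPM in brain and 162 and 156 CPM in spleen. It was the only factor of the 10 whose groups overlapped (log2 fold change -0.11, SE 0.11, adjusted p = 0.599, edgeR's quasi-likelihood test). ID3 over the sum of the E proteins TCF3, TCF4 and TCF12 in TPM was 0.330, 0.331 and 0.459 in brain and 0.402 and 0.351 in spleen, with overlap. These ratios are upper limits, since the TCF3 level counts matched transcripts only, and the highest, in brain replicate 3, stands in the library with the lowest matched share of TCF3 counts. The main ID3 transcript, ID3-201, held 64.0% of ID3 TPM and ID3-202 held 28.0%, and neither passed the threshold.

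FOXO1 (chr13:40555667-40666641), which in mice drives RAG1, RAG2 and IL7R in precursor B cells, had 157, 156 and 159.5 CPM in brain and 117 and 115 CPM in spleen. The spread within each group was small, at 157 ± 1.81 CPM in brain (SD, n = 3) and 116 ± 1.16 CPM in spleen (SD, n = 2). The log2 fold change was 0.44 (SE 0.09, adjusted p = 0.0204, edgeR's quasi-likelihood test). With 1 library left out its size barely moved, between 0.43 and 0.45, but the call ended for brain replicates 1 and 2 (adjusted p = 0.0828 and 0.0639) and for both spleen replicates (0.0699 and 0.06). It held with brain replicate 3 left out (0.0493). FOXO1-201 carried 97.5% of FOXO1 TPM, at 33.2, 36.7 and 37.2 TPM in brain and 23.8 and 27.2 TPM in spleen.

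The commitment factors EBF1 and PAX5 did not pass the test. EBF1, which opens B lineage chromatin, had 306, 313 and 301 CPM in brain and 236 and 289.97 CPM in spleen (log2 fold change 0.22, SE 0.11, adjusted p = 0.26, edgeR's quasi-likelihood test). Its size rested on the spleen replicates, with 0.07 without spleen replicate 1 and 0.38 without spleen replicate 2. PAX5, which represses genes of other lineages, had 584, 567 and 583 CPM in brain and 634 and 782 CPM in spleen (log2 fold change -0.29, SE 0.11, adjusted p = 0.146, edgeR's quasi-likelihood test). It passed without spleen replicate 1 (-0.44, adjusted p = 0.0498) and stood at -0.14 without spleen replicate 2. The groups of either gene did not overlap. PAX5-201 held 95.4% of PAX5 TPM, while the matched EBF1 TPM was divided between EBF1-201 (47.4%), EBF1-209 (24.2%) and other transcripts.

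IKZF1 and BACH2 were likewise not past the threshold. IKZF1, which codes Ikaros, a zinc finger regulator often deleted in precursor B cell leukaemia, had 329.98, 315 and 360.1 CPM in brain and 282 and 308 CPM in spleen (log2 fold change 0.19, SE 0.11, adjusted p = 0.315, edgeR's quasi-likelihood test). Of its matched TPM, IKZF1-201 held 38.2%, IKZF1-202 22.4%, IKZF1-207 15.4% and IKZF1-212 12.8%. BACH2, a repressor that acts with small MAF proteins, had 128, 123 and 115 CPM in brain and 153 and 156 CPM in spleen. Its brain libraries lay below its spleen libraries, and it had the lowest fold change of the 10 (log2 fold change -0.34, SE 0.09, adjusted p = 0.0582, edgeR's quasi-likelihood test). By the Wald test of DESeq2 it was past the threshold (adjusted p = 0.00518). BACH2-201, with 76.7% of the matched BACH2 TPM, stood at 7.61, 8.81 and 6.66 TPM in brain and 11.1 and 10.99 TPM in spleen, while the retained intron transcript BACH2-205 held 10.5%.

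**Figure D4:**
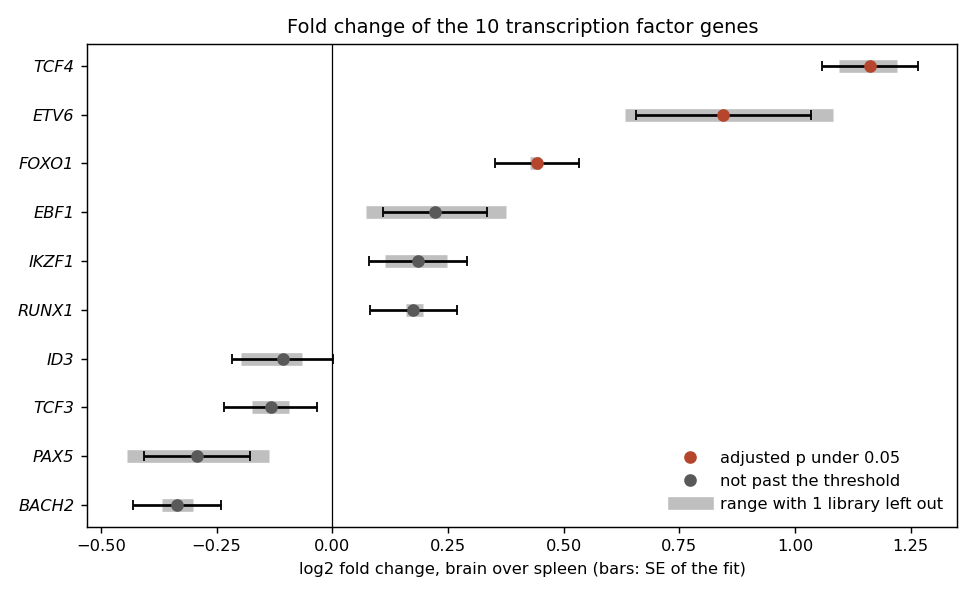
Log2 fold change of brain over spleen for each factor as a point with its standard error, over a grey band for the range with 1 library left out in turn. TCF4 at 1.16, ETV6 at 0.85 and FOXO1 at 0.44 are the 3 past the threshold, and BACH2 is lowest at -0.34.

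At the level of single transcripts, 167 annotated transcripts of the 10 genes were measured and 80 had enough counts to be tested. None passed edgeR's quasi-likelihood test after adjustment, and neither did any of all 75155 transcripts tested (0%). At an unadjusted p under 0.05 there were 15, of which 12 were higher and 3 lower in brain, and 8 of the 15 belonged to TCF4, while 8.06% of all transcripts were under that value. Estimates of transcripts of 1 gene share reads, which limits what they show one by one.

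Relatives and partners of the 10 factors were read as a list of 38 genes, 33 of them tested. Of these, 8 rose in brain (24.2%, against 6.01% of all genes), 2 fell (6.06%, against 3.5%) and 23 did not pass. The median log2 fold change was 0.27, against 0.0066 over all genes. Like the lists below, this one was chosen with earlier results of these data known. ETS1, an ETS factor of lymphocytes, rose with 181, 174 and 222 CPM in brain against 104 and 101 CPM in spleen (log2 fold change 0.90). BACH1 and its small MAF partner MAFF rose by 0.63 and 1.15, and ERG, an ETS factor of blood stem cells, by 0.45. Both genes that fell belong to the Ikaros family: IKZF3, which codes Aiolos, had 4.61, 4.55 and 3.38 CPM in brain and 12.4 and 9.44 CPM in spleen (log2 fold change -1.39), and IKZF2 changed by -0.68. The calls of ETS1, BACH1 and IKZF3 held with any 1 library left out. MAFF missed the threshold with brain replicate 1 or spleen replicate 1 left out (adjusted p = 0.0606 and 0.0696), IKZF2 without brain replicate 2 or either spleen replicate (0.0504 to 0.0822), and ERG with any library other than spleen replicate 1 left out (0.0833 to 0.115, edgeR's quasi-likelihood test) and with the replicate number as a block (0.059). The block takes that number as a shared occasion, as the labels state it, but the column names of the spleen libraries carry other numbers, so the pairing is uncertain.

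Of 36 other transcription factors of the B lineage, 35 were tested. Of these, 6 rose (17.1%, against 6.01% of all genes), 1 fell (2.86%, against 3.5%) and 28 did not pass. The median log2 fold change was 0.19. PRDM1, which codes the plasma cell regulator BLIMP1, rose with 10.3, 10.5 and 10.2 CPM in brain against 2.87 and 2.82 CPM in spleen (log2 fold change 1.86). STAT5A, the signal carrier of the IL-7 receptor, had 26.3, 25.1 and 25.9 CPM in brain and 9.87 and 12.2 CPM in spleen (1.22). Both calls held with any 1 library left out. NR3C1, the glucocorticoid receptor, rose by 0.55 and missed the threshold with brain replicate 1 left out (adjusted p = 0.0666). POU2F2 rose by 0.70 and was lost with any 1 library other than spleen replicate 2 left out (0.0869 to 0.151). LEF1, which acts with beta-catenin, fell by 0.36 on the log2 scale, and that call was lost with any 1 library left out (0.0725 to 0.184, edgeR's quasi-likelihood test) and with the replicate number as a block (0.0783).

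Among 28 known target genes of the B lineage factors, 27 were tested. Of these, 2 rose (7.41%, against 6.01% of all genes), 5 fell (18.5%, against 3.5%) and 20 did not pass. The median log2 fold change was -0.17. The recombinase genes RAG1 and RAG2 were the pair that rose: RAG1 had 1627, 1683 and 1519 CPM in brain and 1081 and 1120.5 CPM in spleen (log2 fold change 0.55), and RAG2 rose by 0.46. The kinase gene BLK fell, with 65.8, 67.4 and 60.3 CPM in brain and 117 and 102 CPM in spleen (-0.76), as did FCRLA (-1.93), the B cell receptor chain CD79A (-0.61) and CD38 (-0.49). The fifth was LEF1, which is in both lists. BLK and FCRLA held with any 1 library left out. RAG1 was lost without brain replicate 1 or 2 (adjusted p = 0.0838 and 0.0711), RAG2 with any library other than brain replicate 3 left out (0.0596 to 0.111), CD79A without brain replicate 1 (0.0816), and CD38 with any 1 library left out (0.0591 to 0.101, edgeR's quasi-likelihood test) and with the replicate number as a block (0.0508).

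Known FOXO target genes numbered 26, of which 24 were tested. By edgeR's quasi-likelihood test 10 rose (41.7%, against 6.01% of all genes), none fell (0%, against 3.5%) and 14 did not pass. At an unadjusted p under 0.05, 2 were lower, and the Wald test of DESeq2 called 1 lower. The median log2 fold change was 0.43. BNIP3, a mitophagy receptor, rose with 89.3, 114 and 80.7 CPM in brain against 19.5 and 19.6 CPM in spleen (2.28), GADD45A of the DNA damage response rose by 0.73, and the transcriptional coregulator CITED2 by 0.70. These calls held with any 1 library left out. The fourth by p was RAG1. The list shares RAG1, RAG2 and IL7R with the B lineage targets, and RAG1 is also among the risen genes of the ETV6-RUNX1 signature list, so it is counted in 3 lists. IL7R did not pass (log2 fold change 0.19, adjusted p = 0.31, edgeR's quasi-likelihood test), and several of its genes are known to answer to other regulators too.

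The ETV6-RUNX1 signature list holds 20 genes known to be high in leukaemias with the fusion. All 20 were tested. By edgeR's quasi-likelihood test 7 rose (35%, against 6.01% of all genes), none fell (0%, against 3.5%) and 13 did not pass. The median log2 fold change was 0.28. At an unadjusted p under 0.05, 2 were lower, as were 2 by the Wald test of DESeq2. TP53INP1, a stress gene, rose with 36.6, 35.7 and 28.1 CPM in brain against 6.70 and 5.83 CPM in spleen (log2 fold change 2.42), and BIRC7, an inhibitor of apoptosis, with 70.3, 82.7 and 63.8 CPM in brain against 22.1 and 18.3 CPM in spleen (1.84). TUSC3 rose by 0.87 and the helix-loop-helix factor TCFL5 by 0.72. All 4 calls held with any 1 library left out. EPOR, the erythropoietin receptor that is a mark of this leukaemia subtype, had 28.4, 35.02 and 31.7 CPM in brain and 35.7 and 32.6 CPM in spleen, with overlap.

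**Figure D5:**
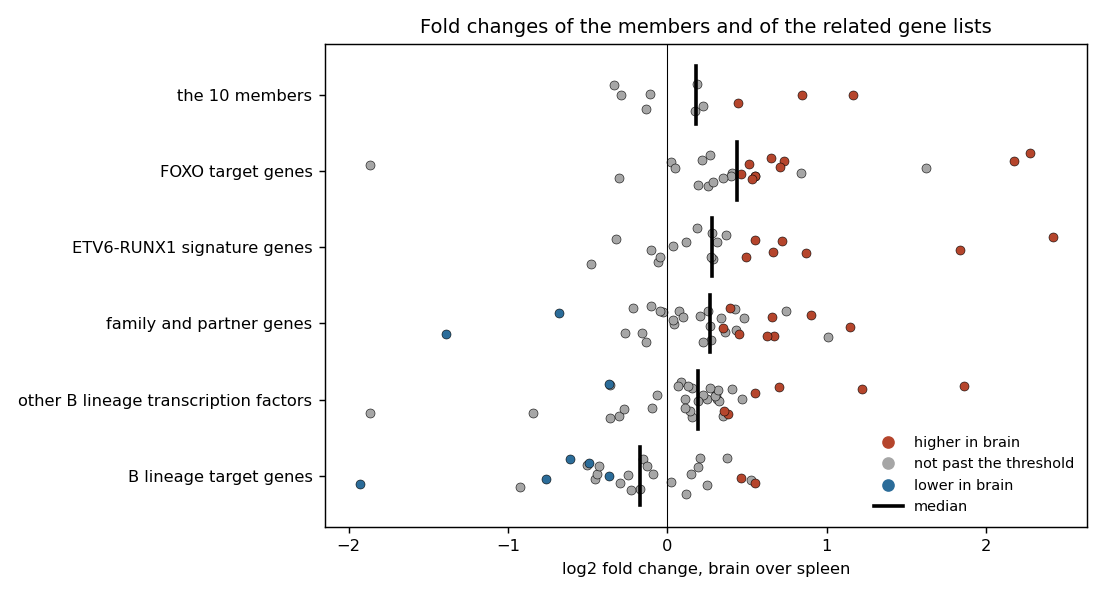
Log2 fold change of brain over spleen for the 10 factors and for each tested gene of the 5 lists, coloured by whether it passed the test, with a line at each median. The FOXO targets have a median of 0.43 and the B lineage targets one of -0.17.

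The genes most like each risen factor were found by the mean absolute difference of log2 CPM, each centred on its own mean, over the 5 libraries and 12970 genes. For TCF4 they were BTG2 (difference 0.0382), ELK3 (0.0583) and OTUD1 (0.0636), with log2 fold changes of 1.10, 1.04 and 1.03, all past the threshold. FOXO1 was most like PPP1R15B (0.0102), MEX3C (0.0131) and ZNF484 (0.0151), with log2 fold changes of 0.44, 0.43 and 0.43, of which PPP1R15B and MEX3C passed with all libraries and were lost with any 1 of them left out (adjusted p = 0.0517 to 0.0956, edgeR's quasi-likelihood test). ETV6 was most like SH3BP2 (0.028), CHRD (0.041) and PIK3IP1 (0.0546), with log2 fold changes of 0.83, 0.82 and 0.84, none past the threshold in edgeR's quasi-likelihood test and all past it with the replicate number as a block (adjusted p = 0.0291, 0.0375 and 0.0239). From summed transcript estimates SH3BP2 stood at -0.087. Likeness over 5 libraries is a description and shares the libraries' depth and scaling. The similar fold changes follow from the choice by profile and are not a further result.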

How the data were processed

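The authors sequenced poly(A) RNA with a stranded kit, per the labels' protocols. Tools named in the submitters' processing notes are kallisto 0.42.4, cutadapt 1.5, bcl2fastq 1.8.4 and DESeq2 (no version), with builds GRCm38 and GRCh38. The strand setting of the counting is not given in the sources used here, so antisense and overlapping genes cannot be told apart. The deposited gene table holds the authors' estimated counts per human gene, and the transcript tables hold estimated counts and TPM of 199596 human and 104229 mouse transcripts, per the file headers. The authors' log2 (rlog) values were used in 1 alternative. Each gene table also holds 1 column of no sample in the series, which was not used. Transcript names were matched to GENCODE 44, which lists 191210 of the human transcripts, and 56322 gene identifiers (86.4%, with 99.8% of counts) matched a symbol.

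From these, CPM with TMM-scaled library sizes and edgeR 4.0.16 quasi-likelihood tests (R 4.3.3, filterByExpr, brain against spleen) were computed here, with Benjamini-Hochberg adjustment over 20419 genes or 75155 transcripts (transcript estimates rounded to whole numbers). SE values are on the log2 scale. Residual degrees of freedom were 3, the prior 5.9 and the common biological coefficient of variation 0.148. The procedure was tested on simulated data. Brain libraries 1, 2 and 3 totalled 38387991, 48656936 and 46078731 estimated counts, and spleen libraries 1 and 2 totalled 46005806 and 48764202.

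The 10 factors and the lists were chosen with earlier results of these data known. Named were all 10 factors with transcripts of at least 10% of the gene's TPM, up to 4 genes by p and direction past the threshold in each of the 5 lists, and the 3 genes of most similar profile to each factor past the threshold. EPOR, IL7R, CD34, PECAM1, CDH5, CLDN5, VPREB1, SNAP25 and CD3D were named outside that rule after their values were seen. The same holds for AIF1, SYT1, CD247, GFAP, MBP and KLRD1. Replicate numbers stand for occasions in the labels' protocols, which would pair brain and spleen libraries 1 and 2. That pairing is uncertain: the deposited column names of the spleen libraries carry other numbers, and the difference between libraries 1 and 2 correlated by 0.0747 between brain and spleen, over 2 pairs. Alternatives were DESeq2 1.42.0 size factors and its Wald test, upper-quartile scaling, other filters, the replicate block, each library left out, summed transcript estimates and limma 3.58.1 on the log2 values. The sequences of the paired TCF3 exons are not reported here.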

Additional observations from a re-analysis of the deposited data

How the results depend on the processing

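TCF4, FOXO1 and ETV6 kept their direction and their call under all alternatives other than leaving out a library. Counts of the 10 factors past the threshold ranged from 1 to 3 with a library left out, with 1 without brain replicate 1 and 1 without brain replicate 2. BACH2 passed with the DESeq2 Wald test (adjusted p = 0.00518), the filter of 1 CPM in 2 libraries (0.0438), limma on the authors' log2 values (0.0482) and summed transcript estimates (0.039, log2 fold change -0.57). Over all genes 1942 passed, against 3167 with no filter and 661 to 1699 with a library left out, lowest without brain replicate 1. With a library left out, the family and partner list had 4 to 7 genes past the threshold, other B lineage factors 3 to 5, B lineage targets 2 to 6, FOXO targets 3 to 9, signature genes 4 to 6 and member transcripts 0. The DESeq2 Wald test gave 13 for other B lineage factors and 12 for B lineage targets, which had 11 with no filter. SH3BP2 turned to -0.087 with summed transcript estimates. The cause of these shifts was not tested. With the replicate block, an uncertain pairing by occasion, 2043 genes and the same number of factors, 3, passed, and the lists had 8, 5, 5, 12 and 8 in the order above. The block ended the calls of ERG, LEF1 and CD38 and of no other named gene, and it brought SH3BP2, CHRD and PIK3IP1 past the threshold. MEX3C missed it with summed transcript estimates (adjusted p = 0.25), and LEF1 with limma on the authors' log2 values (0.0536). Scaling moved the median of all genes by less than 0.1. The groups of 3 and 2 libraries limit what can be called.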
